A study of Mus musculus with 16 samples.

Results

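The genes described here are 10 parts of the leukaemia inhibitory factor (LIF) pathway: the ligand gene Lif, the receptor genes Lifr and Il6st, the kinase gene Jak1, the transcription factor gene Stat3, and 5 genes that the pathway is known to regulate, Socs3, Socs2, Pim1, Pim3 and Gbx2. They were chosen by symbol, all 10 were found among the 52636 gene rows of the count table, and all 10 were among the 12742 genes with enough counts to be tested. LIF binds the receptor chain LIFR, which pairs with gp130, the product of Il6st. The kinase JAK1, bound to the receptor chains, then phosphorylates STAT3, which moves to the nucleus and switches on its targets, among them the inhibitor gene Socs3. On GRCm38 the genes lie at chr11:4257557-4272514 (Lif), chr15:7090614-7197489 (Lifr), chr13:112464070-112510086 (Il6st), chr4:101152367-101265282 (Jak1), chr11:100885098-100939540 (Stat3), chr11:117966079-117970047 (Socs3), chr10:95385362-95417180 (Socs2), chr17:29490753-29496112 (Pim1), chr15:88862186-88865726 (Pim3) and chr1:89927956-89931179 (Gbx2), as annotated in GENCODE M21. In mouse embryonic stem cells this pathway is the classical signal for self-renewal, whereas ERK is the kinase best known for pushing such cells out of it.

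RNA was measured by sequencing, after removal of ribosomal RNA, in 16 libraries of the mouse line CRAFR26, embryonic stem cells with a c-RAF kinase construct that tamoxifen switches on to activate ERK, taken after their differentiation to a pluripotent cell type named RSC in the labels. The routine medium was N2B27 with 2 µM of IWP2, a blocker of Wnt secretion, 1 µM of a MEK inhibitor and 1000 U/ml of LIF. For 48 h before the experiment every group, the controls included, had 250 nM of an FGF receptor inhibitor in place of the MEK inhibitor; the labels name no withdrawal of LIF. The group 0h was taken before induction. The groups 2h and 4h had 250 nM of 4-hydroxytamoxifen for 2 h and 4 h, and the group rev had tamoxifen for 4 h and a MEK inhibitor for 2 h, at a dose the labels do not state. Each group held 4 libraries, 2 from clone 4 and 2 from clone 8, each clone being a single line. The labels do not say whether the libraries of a clone came from separate cultures, so p-values measure the spread between these libraries. Libraries of the group rev were also 2 h older than those of 4h, so the inhibitor and the added time cannot be told apart.

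Library totals ran from 4.31 to 10.4 M counts, of which 46.7% to 78.9% lay in 8 features. A list of 10 ERK readout genes, used as a check of the labels, had 9 genes higher and 0 lower at 2h against 0h, 8 higher at 4h against 0h and 7 lower at rev against 4h. Over all tested genes 9.49% were higher and 7.48% lower at 2h against 0h. At 4h against 0h 7.35% were higher, and at rev against 4h 5.10% were lower. Of the 10 readout genes, 7 rose less in clone 8 than in clone 4 at 4h by the test of the difference between clones. That difference was called, in either direction, for 5.72% of all tested genes. The pluripotency markers Pou5f1, Sox2 and Nanog had at least 111 CPM (counts scaled to the usual fixed library size with TMM factors) in every library. That lowest value was of Nanog at 4h, where it had 111 to 468 CPM, against 344 to 541 CPM at 0h. Of the other listed pluripotency markers Zfp42 had at least 83.9 CPM in every library. Otx2 and Dnmt3b were lower, with 4.18 to 15.9 CPM and 13.2 to 59.1 CPM over all groups. The summed level of 4 primitive endoderm markers was at most 5.15 CPM, of 4 fibroblast markers at most 3.47 CPM, of 2 trophoblast markers at most 1.78 CPM and of 2 mesoderm markers at most 1.73 CPM. The neural marker Pax6 rose at 4h against 0h by 2.37 in log2 units (edgeR BH-adjusted p 8.4e-05) and reached 21.7 CPM. Of the other neural markers Sox1 had 1.67 to 4.74 CPM at 0h and 1.07 to 3.22 CPM at 4h (log2 change -0.75, edgeR BH-adjusted p 0.0907), and Neurog2 was at 0 in both groups. The summed neural level was 4.2 to 6.37 CPM at 0h and 5.93 to 22.8 CPM at 4h, and its part in the results below was not tested. On the third principal component, with 8.57% of the variance, the 8 libraries of 0h and 4h scored above 0 and the 8 of 2h and rev scored below 0. By the labels, 2h and rev were each taken 2 h after a compound was last added, tamoxifen or the MEK inhibitor. The group 4h was taken 4 h after tamoxifen was added, and 0h had no tamoxifen. The part of this split, and of recent compound addition, in comparisons across it, such as 2h against 0h and rev against 4h, was not tested.

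The 10 genes did not move as a block. Gbx2 and Socs2 rose with induction and fell after the MEK inhibitor. Socs3 was higher than at 0h in all 3 other groups, and was also higher at rev than at 4h. Jak1, Stat3 and Lifr rose 1.49-fold, 1.46-fold and 1.37-fold at 2h against 0h, and Pim3 fell at 4h and rose again at rev. At 2h against 0h, 5 of the 10 genes were called higher (Lifr, Jak1, Stat3, Socs3 and Gbx2) and 0 lower. Of all tested genes 9.49% were called higher and 7.48% lower, 17.0% in either direction. At an unadjusted edgeR p under 0.05 it was 7 of the 10 genes higher and 0 lower. The share of all tested genes at that unadjusted threshold was not computed, here or below. At 4h against 0h, 4 were called higher (Jak1, Socs3, Socs2 and Gbx2) and 1 lower (Pim3), against 7.35% and 5.56% of all genes and 12.9% in either direction. At rev against 4h, 2 were called higher (Socs3 and Pim3) and 2 lower (Socs2 and Gbx2), against 4.50% and 5.10% of all genes and 9.61% in either direction. The median log2 change of the 10 genes was 0.45 at 2h against 0h, 0.25 at 4h against 0h and 0.17 at rev against 4h, beside medians of 0.00, -0.01 and 0.00 over all tested genes. Library totals cannot show whether fewer cells expressed a gene or each cell held less of its RNA. A call means a Benjamini-Hochberg (BH) adjusted p under 0.05 over all tested genes in edgeR's quasi-likelihood test. In all, 9 of the 10 genes, every one but Lif, were called in at least 1 of the 6 comparisons between groups, as were 33.5% of all tested genes; these comparisons share libraries.

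**Figure D1:**
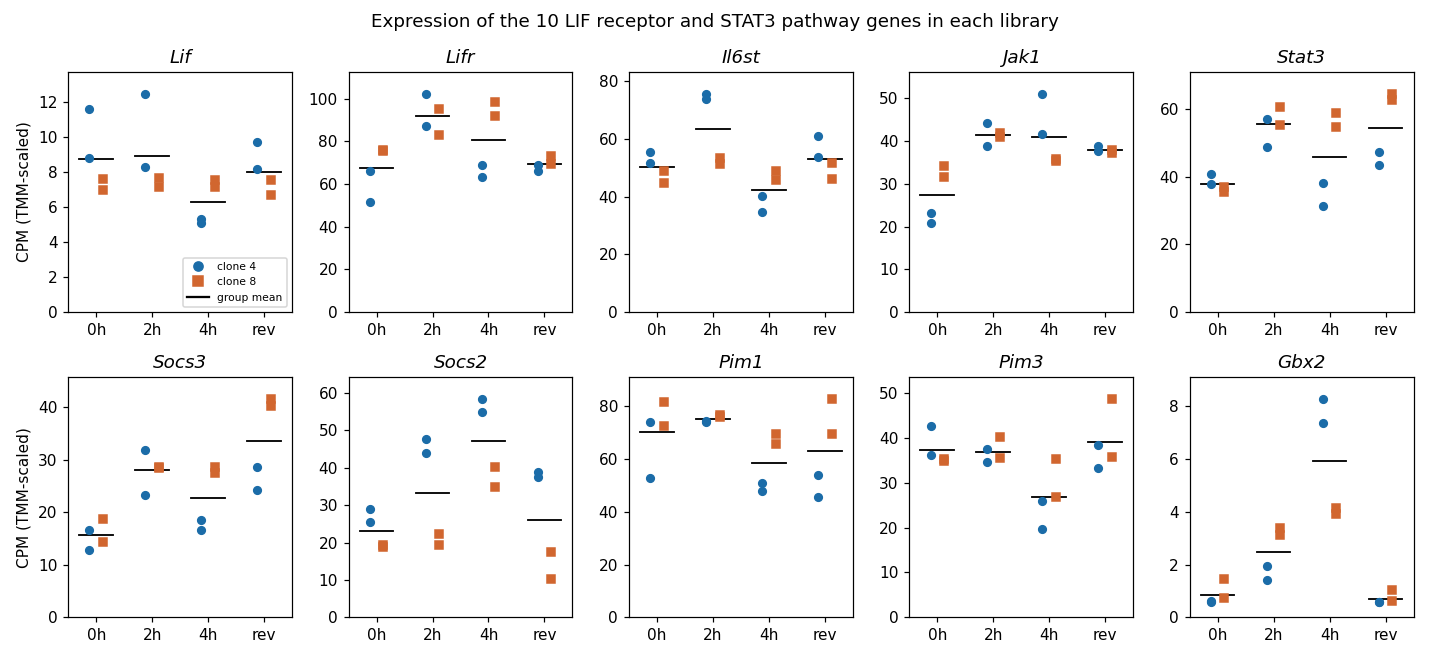
Expression of the 10 genes in each library, in TMM-scaled CPM (vertical axes start at 0) by group; circles are clone 4, squares clone 8 and bars the mean of the 4 libraries of a group. Gbx2 and Socs2 peak at 4h, and Socs3 has its highest group mean, 33.6 CPM, at rev.

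**Figure D2:**
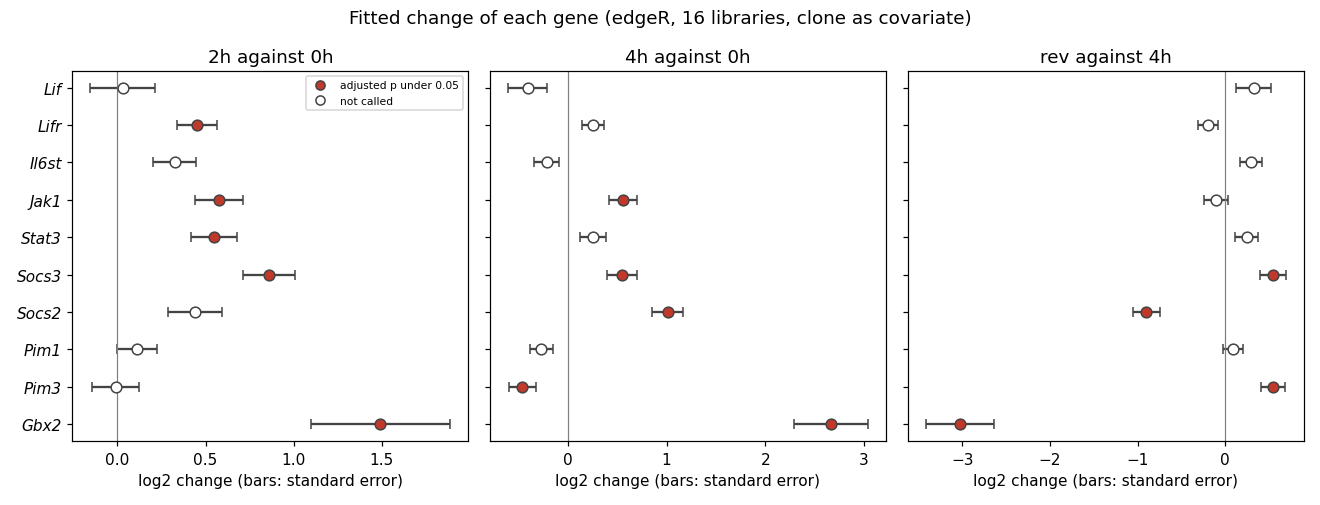
Fitted log2 change of each gene in 3 comparisons (after 2 h and 4 h of induction, each against 0h, and after the MEK inhibitor, against 4h), with bars of 1 standard error; filled points have an edgeR BH-adjusted p under 0.05. Gbx2 has the widest changes, 2.66 at 4h against 0h and -3.03 at rev against 4h.

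Lif encodes the ligand itself, a cytokine that was also supplied in the routine medium. In clone 4 its level was 11.6 and 8.79 CPM at 0h, 12.4 and 8.29 CPM at 2h, 5.07 and 5.33 CPM at 4h, and 8.13 and 9.70 CPM at rev. In clone 8 it was 6.95 and 7.62 CPM at 0h, 7.14 and 7.64 CPM at 2h, 7.14 and 7.5 CPM at 4h, and 6.66 and 7.55 CPM at rev. The clone 8 libraries ran from 6.66 to 7.64 CPM over all groups, while both clone 4 libraries at 4h lay below every other clone 4 library. No comparison over both clones was called: the log2 change was -0.41 (SE 0.199, edgeR BH-adjusted p 0.186) at 4h against 0h and 0.32 (SE 0.201, edgeR BH-adjusted p 0.335) at rev against 4h. In clone 4 fitted alone Lif fell by 0.97 in log2 units at 4h (edgeR BH-adjusted p 0.0103) and rose by 0.80 at rev (edgeR BH-adjusted p 0.0212), against 0.01 and -0.01 in clone 8. The difference between the clones did not pass the test (0.97 at 4h, edgeR BH-adjusted p 0.0845). Counts of Lif were 21 to 109 per library, the second lowest of the 10 genes.

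Lifr encodes the receptor chain that LIF binds. Its level in clone 4 was 51.5 and 66.2 CPM at 0h, 87.3 and 102 CPM at 2h, 63.3 and 68.8 CPM at 4h, and 66.3 and 68.9 CPM at rev. Clone 8 had 75.5 and 76.0 CPM at 0h, 82.9 and 95.0 CPM at 2h, 98.2 and 92.0 CPM at 4h, and 69.3 and 73.0 CPM at rev. All 2h libraries lay above all 0h libraries, and the group means were 67.3 ± 11.4 CPM (SD, n = 4) and 91.9 ± 8.56 CPM. This rise of 0.45 in log2 units (SE 0.113, edgeR BH-adjusted p 0.00982) was 0.67 in clone 4 and 0.23 in clone 8, where it was not called alone (edgeR BH-adjusted p 0.0946). The change from 0h to 4h was 0.25 (edgeR BH-adjusted p 0.153). All rev libraries lay below all 2h libraries, and the log2 change of rev against 2h, -0.40, was not called in the fit of all libraries (edgeR BH-adjusted p 0.0765). It was called with DESeq2, without the count filter and with only the 2h and rev libraries (adjusted p 0.0407, 0.00618 and 0.00389).

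Il6st encodes gp130, the signalling chain that LIF shares with the other IL-6 family cytokines. In clone 4 it had 51.7 and 55.5 CPM at 0h, 73.7 and 75.6 CPM at 2h, 40.1 and 34.8 CPM at 4h, and 53.8 and 61.1 CPM at rev. Clone 8 held 48.9 and 44.5 CPM at 0h, 51.4 and 53.5 CPM at 2h, 48.8 and 45.8 CPM at 4h, and 51.5 and 45.9 CPM at rev. Clone 4 thus went up and down by group, with no overlap between its 2h and 4h libraries and those of any other group, while the clone 8 libraries all lay between 44.5 and 53.5 CPM. Over both clones only 4h against 2h was called, with a log2 change of -0.54 (SE 0.123, edgeR BH-adjusted p 0.00859), where all 4h libraries lay below all 2h libraries. This change was -0.98 in clone 4 and -0.14 in clone 8, where it was not called alone (edgeR BH-adjusted p 0.393); at 2h against 0h the change was 0.33 (edgeR BH-adjusted p 0.0697). Among the 10 genes 5 were called at 4h against 2h, 2 higher (Socs2 and Gbx2) and 3 lower (Il6st, Pim1 and Pim3), against 5.78% and 6.36% of all tested genes and 12.1% in either direction.

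Jak1 encodes the tyrosine kinase that gp130 and LIFR carry. In clone 4 it had 20.8 and 23.2 CPM at 0h, 38.9 and 44.2 CPM at 2h, 51.1 and 41.7 CPM at 4h, and 37.6 and 38.9 CPM at rev. Values in clone 8 were 34.2 and 31.6 CPM at 0h, 40.9 and 42.0 CPM at 2h, 35.7 and 35.2 CPM at 4h, and 37.8 and 37.1 CPM at rev. The 0h libraries lay below those of every other group, and the clone 4 libraries at 0h were the lowest of all 16. Jak1 rose by 0.58 in log2 units at 2h against 0h (SE 0.136, edgeR BH-adjusted p 0.00671) and by 0.56 at 4h against 0h (SE 0.139, edgeR BH-adjusted p 0.0118). At 4h the change was 1.08 in clone 4 and 0.10 in clone 8 (edgeR BH-adjusted p 0.608 in clone 8 alone). The call at 4h was lost without the first clone 4 library at 0h or the first clone 4 library at 4h. The MEK inhibitor was followed by no called change (-0.11 at rev against 4h, edgeR BH-adjusted p 0.664), and Jak1 at rev was still higher than at 0h by 0.45 (edgeR BH-adjusted p 0.0449), a call that 10 of the 16 omissions of a single library ended.

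Stat3 encodes the transcription factor of the pathway and is known as a target of its own product. In clone 4 it had 38.0 and 40.9 CPM at 0h, 48.9 and 57.1 CPM at 2h, 31.5 and 38.1 CPM at 4h, and 47.2 and 43.4 CPM at rev. Clone 8 had levels of 35.6 and 36.9 CPM at 0h, 60.5 and 55.2 CPM at 2h, 54.7 and 58.8 CPM at 4h, and 64.5 and 62.6 CPM at rev. The clones overlapped or lay close at 0h and at 2h, and lay apart at 4h, where both clone 4 libraries were back in the range of 0h or below it and both clone 8 libraries were not. Stat3 rose at 2h against 0h by 0.55 in log2 units (SE 0.13, edgeR BH-adjusted p 0.00726), with no overlap between the groups. At 4h against 0h the change over both clones was 0.25 (edgeR BH-adjusted p 0.226), made of -0.22 in clone 4 (edgeR BH-adjusted p 0.301) and 0.64 in clone 8 (edgeR BH-adjusted p 0.000386). At rev against 0h it was higher by 0.50 (SE 0.132, edgeR BH-adjusted p 0.0205), again with no overlap between the groups, 0.20 in clone 4 and 0.80 in clone 8. Without either clone 8 library at 0h, or the second clone 8 library at rev, that call was lost. Of the 10 genes 3 were called higher at rev than at 0h (Jak1, Stat3 and Socs3) and 0 lower, against 5.51% and 4.94% of all tested genes and 10.5% in either direction. At an unadjusted p under 0.05 edgeR gave the same 3 and 0. DESeq2 gave 3 calls, where it called 1335 of the 12742 tested genes.

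Socs3 encodes the feedback inhibitor that binds gp130 and JAK kinases and is the most used transcript readout of STAT3. The 250 bases before its RefSeq start are shown because they hold the only match, in the windows of the 9 genes that had one, to the letters that STAT dimers are known to bind, TTCNNNGAA. They lie on the minus strand at chr11:117969367-117969616 (GRCm38.p6), and capitals mark the match, whose first base lies at -154 from the RefSeq start. In GENCODE M21 the gene begins further upstream, at chr11:117970047, so this stretch and its match lie inside the gene as placed above.
Socs3: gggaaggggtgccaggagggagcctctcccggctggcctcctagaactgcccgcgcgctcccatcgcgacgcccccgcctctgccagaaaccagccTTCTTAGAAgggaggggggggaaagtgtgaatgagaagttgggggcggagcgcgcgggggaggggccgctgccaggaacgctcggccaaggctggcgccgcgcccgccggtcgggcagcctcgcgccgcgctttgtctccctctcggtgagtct

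In clone 4 Socs3 had 16.6 and 12.9 CPM at 0h, 23.3 and 31.8 CPM at 2h, 16.7 and 18.5 CPM at 4h, and 28.6 and 24.2 CPM at rev. In clone 8 it had 14.4 and 18.7 CPM at 0h, 28.5 and 28.7 CPM at 2h, 28.5 and 27.4 CPM at 4h, and 40.3 and 41.6 CPM at rev. All libraries at 2h and at rev lay above all libraries at 0h, whereas the clone 4 libraries at 4h lay within the range of 0h. The rise at 2h against 0h was 0.86 in log2 units, or 1.81-fold (SE 0.147, edgeR BH-adjusted p 0.000686), and was called in each clone alone (0.91 and 0.81). From 0h to 4h it was 0.55 (SE 0.152, edgeR BH-adjusted p 0.0221), with 0.78 in clone 8 and 0.25 in clone 4, where it was not called alone (edgeR BH-adjusted p 0.42); without the first clone 8 library at 0h or the first clone 8 library at 4h the call was lost. In clone 4 alone Socs3 fell by 0.66 from 2h to 4h (edgeR BH-adjusted p 0.00551), against -0.02 in clone 8. After the MEK inhibitor Socs3 rose by 0.54 against 4h (SE 0.143, edgeR BH-adjusted p 0.0205), by 0.61 in clone 4 and 0.55 in clone 8, each called alone. Leaving out either clone 4 library at 4h, the first clone 4 library at rev or the second clone 8 library at rev ended this call in the fit of both clones. Rev and 2h were not called different (0.23, edgeR BH-adjusted p 0.448), with -0.05 in clone 4 (edgeR BH-adjusted p 0.901) and 0.52 in clone 8 (edgeR BH-adjusted p 0.0101). Its level at rev was 2.13-fold that at 0h (log2 change 1.09, SE 0.148, edgeR BH-adjusted p 0.000205), a rise that kept its call under all 25 alternatives tried. The higher levels at 2h and rev fall on one side of the split on the third principal component.

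Socs2 encodes a related inhibitor best known from growth hormone signalling through STAT5, and it behaved unlike Socs3. In clone 4 it had 25.6 and 28.9 CPM at 0h, 47.6 and 44.1 CPM at 2h, 54.9 and 58.4 CPM at 4h, and 38.9 and 37.4 CPM at rev. In clone 8 it had 19.3 and 18.8 CPM at 0h, 19.4 and 22.4 CPM at 2h, 35.0 and 40.1 CPM at 4h, and 10.3 and 17.4 CPM at rev. Both clones were highest at 4h, clone 4 was already up at 2h, and at rev clone 8 lay below its own 0h level while clone 4 lay above it. The log2 change at rev against 0h was 0.48 in clone 4 alone (edgeR BH-adjusted p 0.0111). In clone 8 alone it was -0.35 (edgeR BH-adjusted p 0.217, not called), and over both clones 0.11 (edgeR BH-adjusted p 0.717). Socs2 rose at 4h against 0h by 1.01 in log2 units, or 2.02-fold (SE 0.155, edgeR BH-adjusted p 0.000261), with 1.03 in clone 4 and 0.97 in clone 8 and no overlap between the groups. Both groups lie on the same side of the split on the third component, and with only these 8 libraries in the fit the rise was again called. It fell by 0.90 at rev against 4h (SE 0.154, edgeR BH-adjusted p 0.000912), by 0.56 in clone 4 and 1.31 in clone 8, each called alone. Its lowest value, 10.3 CPM, rests on 34 counts in the first clone 8 library at rev, which had the largest share of counts in the 8 features (78.9%) and the lowest TMM factor (0.537); the fall was also called without that library.

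Pim1 and Pim3 encode serine/threonine kinases that promote growth and survival, and both are classical STAT3 targets in mouse embryonic stem cells. For Pim1 the 4 libraries at 0h had 52.6 to 81.6 CPM, those at 2h 73.9 to 76.5 CPM, those at 4h 47.7 to 69.2 CPM and those at rev 45.7 to 82.7 CPM. The range at 2h was the narrowest, and all 4h libraries lay below it. This fall from 2h to 4h, 0.38 in log2 units (log2 change -0.38, SE 0.116, edgeR BH-adjusted p 0.0374), was the only call of Pim1 between groups, and 5 of the 16 omissions of a single library ended it. With each clone fitted alone the log2 change was -0.60 in clone 4 (edgeR BH-adjusted p 0.00165) and -0.18 in clone 8 (edgeR BH-adjusted p 0.286, not called). At rev the clones lay apart, with 45.7 to 54.0 CPM in clone 4 and 69.3 to 82.7 CPM in clone 8. The changes at 2h against 0h (0.11) and rev against 4h (0.09) had edgeR BH-adjusted p of 0.545 and 0.691. Pim1 shares 14.5% of its exon length with an annotated gene on the opposite strand, Gm26885, which had 2 to 12 counts per library against 200 to 1084 for Pim1.

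Pim3 had 42.6 and 36.2 CPM in clone 4 and 34.9 and 35.2 CPM in clone 8 at 0h, and 34.5, 37.5, 40.0 and 35.5 CPM in the same order at 2h. At 4h it had 19.7 and 25.9 CPM in clone 4 and 35.2 and 26.8 CPM in clone 8, and at rev 38.4, 33.2, 35.7 and 48.6 CPM in the same order. The first clone 8 library at 4h stayed in the range of 0h, and the other 3 lay below it. Pim3 fell by 0.46 in log2 units at 4h against 0h (SE 0.138, edgeR BH-adjusted p 0.0317) and rose by 0.54 at rev against 4h (SE 0.137, edgeR BH-adjusted p 0.0166). The fall was 0.83 in clone 4 (edgeR BH-adjusted p 0.000261) and 0.15 in clone 8 (edgeR BH-adjusted p 0.552), and the clones differed in it by 0.66 (edgeR BH-adjusted p 0.0632). It lost its call when either clone 4 library of 0h or of 4h, or the second clone 8 library at 4h, was left out. The rise at rev was called in each clone alone (0.69 and 0.47), and over both clones it lost its call without the first clone 4 library at 4h, the first clone 4 library at rev or the second clone 8 library at rev.

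Gbx2 encodes a homeobox transcription factor that was described as a STAT3 target able to sustain mouse embryonic stem cells. It was the least abundant of the 10 genes and the one that changed most. The 250 bases before its RefSeq start are shown beside those of Socs3 as those of the gene with the widest change, and hold no match to the motifs searched; they lie on the minus strand at chr1:89931177-89931426 (GRCm38.p6).
Gbx2: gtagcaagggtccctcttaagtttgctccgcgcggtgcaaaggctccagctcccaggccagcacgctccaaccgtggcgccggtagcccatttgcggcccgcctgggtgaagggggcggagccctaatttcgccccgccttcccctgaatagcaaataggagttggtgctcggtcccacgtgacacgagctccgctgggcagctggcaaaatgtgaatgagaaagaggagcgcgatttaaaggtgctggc

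In clone 4 Gbx2 had 3 and 4 counts (0.599 and 0.606 CPM) at 0h, 11 and 14 counts (1.43 and 1.94 CPM) at 2h, 62 and 29 counts (8.27 and 7.37 CPM) at 4h, and 5 and 6 counts (0.565 and 0.582 CPM) at rev. Counts in clone 8 were 14 and 5 counts (1.45 and 0.719 CPM) at 0h, 41 and 48 counts (3.11 and 3.37 CPM) at 2h, 39 and 27 counts (3.92 and 4.13 CPM) at 4h, and 2 and 8 counts (0.606 and 1.02 CPM) at rev. Every 4h library lay above every library of the other 3 groups, and the rev libraries were back in or near the range of 0h. Gbx2 rose at 4h against 0h by 2.66 in log2 units, or 6.34-fold (SE 0.376, edgeR BH-adjusted p 0.000123), and fell by 3.03 at rev against 4h (SE 0.39, edgeR BH-adjusted p 6.38e-05). Both were called in each clone alone and under every alternative tried. The rise was already called at 2h (log2 change 1.49, SE 0.396, edgeR BH-adjusted p 0.0146), where the groups just overlapped, but not in clone 4 alone (edgeR BH-adjusted p 0.0659) nor without the second clone 8 library at 2h. It grew from 2h to 4h by 1.17 (edgeR BH-adjusted p 0.0167), by 2.22 in clone 4 and 0.31 in clone 8, where it was not called alone (edgeR BH-adjusted p 0.509); the call was lost without either clone 4 library at 2h or the first at 4h. At rev against 0h the log2 change was -0.36 (SE 0.524, edgeR BH-adjusted p 0.717). Against 2h, the group on the same side of the split on the third component, rev was lower by 1.85 (log2 change -1.85, SE 0.419, edgeR BH-adjusted p 0.0245), the single call among the 10 genes in that comparison, where 1.01% of all tested genes were called lower, 0.769% higher and 1.78% in either direction. That call was lost without any 1 of 5 libraries (either clone 8 library at 2h, either clone 4 library at rev or the first clone 8 library at rev). Gbx2 shares 43.5% of its exon length with D130058E05Rik on the opposite strand, which had 1 to 17 counts per library and was not tested; since strand counting is not stated, reads of the shared part cannot be assigned.

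Set per exon length, the levels of the 10 genes spanned more than a factor of 10. Mean RPKM (TMM-scaled CPM per kilobase of exon) over the 16 libraries was 19.8 ± 3.67 (SD, n = 16) for Pim1, 14.4 ± 2.76 for Pim3, 8.66 ± 2.96 for Socs3, 7.17 ± 1.32 for Lifr, 5.11 ± 1.02 for Jak1, 5.08 ± 1.14 for Stat3, 4.71 ± 0.963 for Il6st, 3.40 ± 1.5 for Socs2, 1.83 ± 0.448 for Lif and 1.14 ± 1.12 for Gbx2. Pim1 and Pim3 stood above 93.0% and 89.8% of all tested genes, Lif and Gbx2 above 40.8% and 28.9%. Pim1 exceeded Pim3 in 15 of 16 libraries and Pim3 exceeded Socs3 in 16. Jak1 exceeded Stat3 in 9 of 16 and Stat3 exceeded Il6st in 8 of 16, so the order of these 3 pathway components was not resolved. Socs3 exceeded Lifr in 11 and Lif exceeded Gbx2 in 12 of 16.

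**Figure D3:**
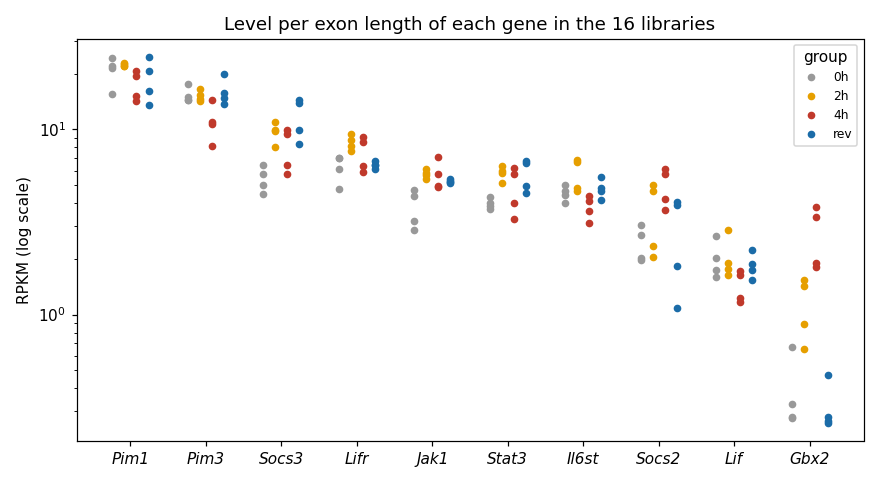
Level of each gene per exon length (RPKM, log axis) in the 16 libraries, coloured by group and ordered by the mean. Jak1, Stat3 and Il6st overlap, and Gbx2 spans from 0.259 to 3.80 RPKM.

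The clones differed in level and in response. In the model with both clones, Pim1, Socs3, Stat3 and Lifr were higher in clone 8 by 0.34, 0.38, 0.30 and 0.21 in log2 units (edgeR BH-adjusted p 0.00319, 0.00609, 0.0154 and 0.0471), and Socs2 was lower by 0.90 (log2 difference -0.90, edgeR BH-adjusted p 2.61e-06). That is 4 genes higher and 1 lower, against 17.1% and 17.8% of all tested genes and 34.9% in either direction. The Lifr difference lost its call in 11 of the 16 omissions of a single library. These differences are averages over the groups. For Pim1, Socs3 and Socs2 the clone means had the same direction in each group. Stat3 was lower in clone 8 at 0h, with a mean of 36.3 against 39.4 CPM, and higher in the other groups (56.7 against 34.8 CPM at 4h). Lifr was lower in clone 8 at 2h, with 88.9 against 94.8 CPM, and higher in the other groups. Each clone is 1 line, so these values compare 2 lines.

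At 4h against 0h the change itself differed between clones for 3 of the 10 genes, against 5.72% of all tested genes. Jak1 rose by 1.08 in clone 4, while its change in clone 8 was 0.10 (difference, clone 8 minus clone 4, -0.99, SE 0.173, edgeR BH-adjusted p 0.00024), and this held in all 22 alternatives. Stat3 changed by -0.22 in clone 4 and rose by 0.64 in clone 8 (difference 0.85, SE 0.169, edgeR BH-adjusted p 0.0011), a call lost only without the first clone 4 library at 4h. Il6st fell by 0.51 in clone 4, against 0.02 in clone 8 (difference 0.52, edgeR BH-adjusted p 0.0488), a call that 16 of 22 alternatives ended. For Gbx2 the rise was 3.66 in clone 4 and 1.80 in clone 8, and the difference of -1.88 did not pass the test (edgeR BH-adjusted p 0.0757). Jak1 rose more in clone 4, where 7 of the 10 ERK readout genes also rose more. At 0h Jak1 was lower in clone 4, with a mean of 22.0 CPM against 32.9 CPM in clone 8. Stat3 was called in clone 8 alone. Whether these differences are related was not tested, and with 1 line per clone they cannot be told apart.

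At 2h against 0h the difference was called for Jak1 (-0.58, edgeR BH-adjusted p 0.0262) and Socs2 (-0.61, edgeR BH-adjusted p 0.0474), both rising more in clone 4, against 7.94% of all tested genes. Neither held with DESeq2, and Jak1 lost its call in 6 and Socs2 in 11 of the 16 omissions of a single library. At rev against 4h it was called for Il6st (-0.58, edgeR BH-adjusted p 0.0139) and Socs2 (-0.75, edgeR BH-adjusted p 0.00968), against 13.2% of all tested genes. Il6st rose by 0.61 in clone 4 alone, against 0.02 in clone 8, and Socs2 fell more in clone 8. The Socs2 difference was -0.52 without the first clone 8 library at rev (edgeR BH-adjusted p 0.0801, not called) and -1.29 without the second (edgeR BH-adjusted p 0.00125). Its call was also lost without the first clone 4 library at 4h (-0.71, edgeR BH-adjusted p 0.0598). The Il6st call was lost without the second clone 4 library or first clone 8 library at 4h, or the second clone 4 or second clone 8 library at rev.

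Fitted alone, clone 4 gave 6 calls among the 10 genes at 2h against 0h (20.7% of all genes tested in that clone) and clone 8 gave 4 (17.8%). From 0h to 4h clone 4 gave 6 (19.0%) and clone 8 gave 5 (6.28%), of which Socs2 and Gbx2 were called in both. From 2h to 4h clone 4 gave 8 (27.1%), all but Jak1 and Socs2, and clone 8 gave 1, Socs2 (9.65%). From 4h to rev clone 4 gave 7 (24.6%) and clone 8 gave 5 (6.42%), with Socs3, Socs2, Pim3 and Gbx2 called in both. Against 0h, rev gave 3 in clone 4 (16.8%) and 2 in clone 8 (9.90%), with Socs3 in both. Against 2h, rev gave 2 in each clone (3.31% and 3.49%), with different genes: Lifr and Pim1 in clone 4, Socs3 and Gbx2 in clone 8.

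The libraries of both groups did not overlap for 4 of the 10 genes at 2h against 0h (16.3% of all tested genes), 3 at 4h against 0h (13.5%), 3 at 4h against 2h (11.1%), 1 at rev against 4h (8.87%), 3 at rev against 0h (11.9%) and 3 at rev against 2h (6.36%). Gbx2 was the gene without overlap at rev against 4h.

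**Figure D4:**
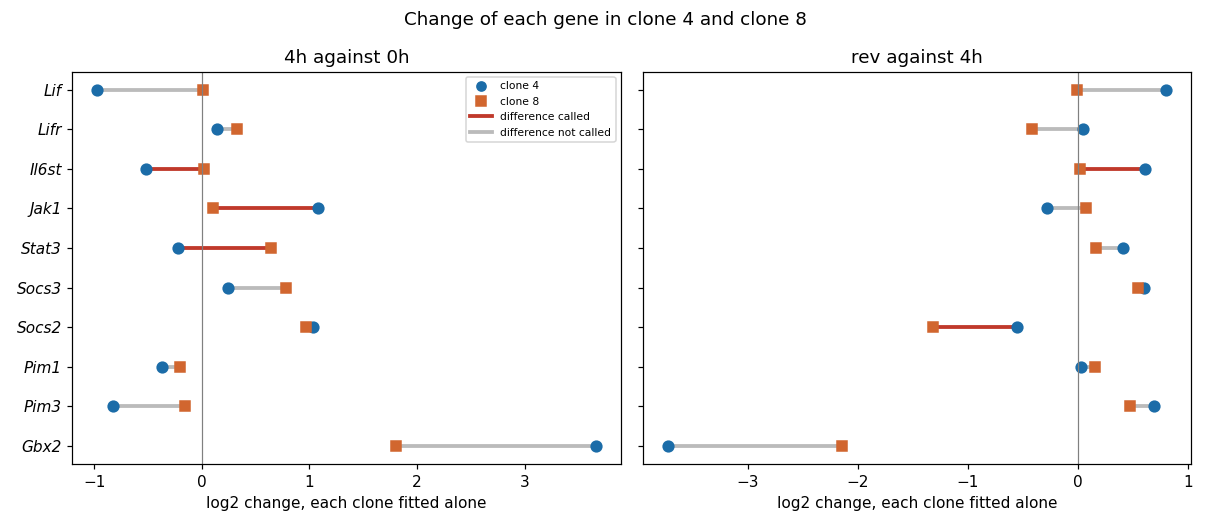
Log2 change of each gene at 4h against 0h and at rev against 4h with each clone fitted alone (circles, clone 4; squares, clone 8); red lines join pairs whose difference had an edgeR BH-adjusted p under 0.05. At 4h Jak1 lies at 1.08 in clone 4 and 0.10 in clone 8, and Stat3 at -0.22 and 0.64.

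After the mean of each clone was subtracted, profiles over the 16 libraries were set side by side, as a description; the points share libraries, groups and scaling. Among the 45 pairs of the 10 genes the highest correlation of log2 CPM was that of Stat3 with Socs3 (Pearson r = 0.866), followed by Socs2 with Gbx2 (0.778) and Il6st with Lif (0.723). Pim3 ran opposite to Gbx2 (-0.723), and Lif opposite to Gbx2 (-0.637). Stat3 and Gbx2 had a correlation of -0.11, so the genes fell into more than one pattern. The genes of the whole table most like each were found among those with a mean of at least 50 counts. For Gbx2 they were Hs3st3b1, Mkrn1 and Fzd7 (r = 0.94, 0.937 and 0.936), for Socs2 Slc7a3, Grhl3 and Glud1 (0.901, 0.898 and 0.892), for Socs3 Rab11b, Nploc4 and Ccna2 (0.935, 0.903 and 0.892), for Stat3 Gtse1, N4bp1 and Ofd1 (0.932, 0.921 and 0.868) and for Jak1 Zswim6, Itgb1 and Baz1a (0.963, 0.955 and 0.946). For Lifr they were Msl2, Lgr4 and Rbm15 (0.928, 0.908 and 0.907), for Il6st Trps1, Suco and Cers6 (0.951, 0.937 and 0.92), for Pim1 Rps6ka2, Acsl3 and Cux1 (0.873, 0.865 and 0.858) and for Pim3 Nek2, Kif1c and Dnpep (0.916, 0.901 and 0.897).

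**Figure D5:**
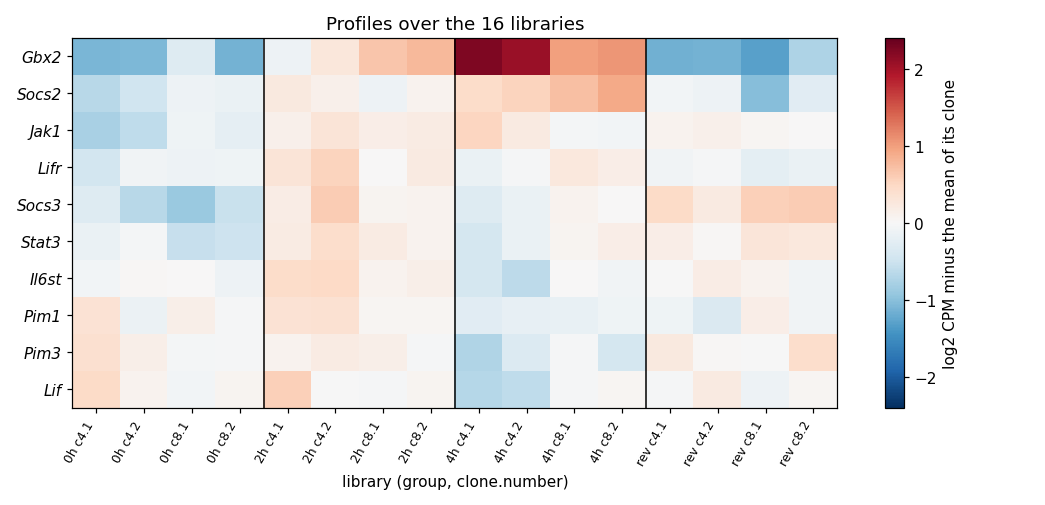
Log2 CPM of each gene minus the mean of its clone (colour scale) in the 16 libraries, ordered by group, clone and number. Gbx2 and Socs2 are highest in the 4h columns, whereas Socs3 is low in all 0h columns and high in all rev columns.

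RefSeq promoter windows, from 250 bases before to 50 after a start, were found for 9 of the 10 genes (11 windows on GRCm38.p6). They were searched on both strands for TTCNNNGAA, for the ETS core CCGGAAG and for the AP-1 letters TGANTCA. The STAT letters occurred once, in the Socs3 window shown above, and in 8.30% of all 32851 windows. The AP-1 letters occurred once, as TGACTCA at -228 from the start of Lif, and in 7.81% of all windows, and the ETS core in none of the 11 and 8.86% of all. The Socs3 window, both Lifr windows and the Pim1 window at chr17:29492835-29493134 lie inside the genes as annotated in GENCODE M21. These are matches of letters in short windows, not measured binding sites.

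Other genes of the pathway were counted from lists chosen for their known roles. Of 12 ligand and receptor genes of the IL-6 family 4 had enough counts to be tested; Il6, Il11, Osm, Cntf, Clcf1 and Osmr had at most 17 counts in any library. At 4h against 0h 1 of these 4 was called higher and 0 lower, against 7.35% and 5.56% of all tested genes. The 1 called was Il6ra, the gene for the IL-6 receptor chain that pairs with gp130. Mean CPM was 2.4 in 0h and 20.7 in 4h libraries, and the log2 rise was 3.02 (SE 0.562, edgeR BH-adjusted p 0.00148). This was 4.38 in clone 4 and 1.32 in clone 8, and the difference of -3.08 was called (edgeR BH-adjusted p 2.43e-05). At rev against 4h Il6ra fell by 2.34 (edgeR BH-adjusted p 0.00726), and Cntfr, the receptor gene for ciliary neurotrophic factor, by 1.74 (edgeR BH-adjusted p 0.024). These were 2 of the 4 tested genes lower and 0 higher, against 5.10% and 4.50% of all tested genes.

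Of 27 further JAK-STAT transducers and regulators, all tested, 4 were higher and 5 lower at 2h against 0h, 2 higher and 1 lower at 4h against 0h, and 0 higher and 2 lower at rev against 4h (edgeR; without adjustment, 1 and 2 had p under 0.05). Over all tested genes, at an adjusted p under 0.05, 9.49% were higher and 7.48% lower at 2h, 7.35% and 5.56% at 4h, and 4.50% and 5.10% at rev. The median log2 changes of the list were 0.08, 0.02 and -0.08. Stat2, a transcription factor gene of interferon signalling, had mean CPM of 37.3 in 0h, 14.1 in 2h and 20.6 in 4h libraries and fell by 1.41 and 0.85 in log2 units (edgeR BH-adjusted p 1.07e-06 and 0.000234), and was still lower at rev than at 0h (-1.12, edgeR BH-adjusted p 3.97e-05). Socs5, a further SOCS family gene, rose by 1.86 at 4h against 0h (edgeR BH-adjusted p 0.0154) and fell by 1.78 at rev (edgeR BH-adjusted p 0.0237). The rise was 3.11 in clone 4 and 0.15 in clone 8, with the difference called (-2.98, edgeR BH-adjusted p 3.19e-06). Stat6, the transcription factor gene of IL-4 signalling, fell by 0.52 at rev against 4h (edgeR BH-adjusted p 0.044).

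Of 12 further genes known as STAT3-responsive 11 were tested, and several of them are also known to respond to ERK. At 2h against 0h 4 were higher and 0 lower (edgeR; 4 and 1 at an unadjusted p under 0.05), at 4h against 0h 3 were higher and 2 lower, and at rev against 4h 2 were higher and 3 lower. The shares of all tested genes at an adjusted p under 0.05 were 9.49% and 7.48%, 7.35% and 5.56%, and 4.50% and 5.10%. Their median log2 changes were 0.10, 0.19 and 0.12. Myc, a growth-promoting transcription factor gene, rose by 4.08 at 4h (edgeR BH-adjusted p 1.86e-05) and fell by 3.20 at rev (edgeR BH-adjusted p 0.000108), Junb, an AP-1 gene, rose by 1.64 (edgeR BH-adjusted p 0.00113) and fell by 0.94 (edgeR BH-adjusted p 0.0371), and Klf5, a pluripotency factor gene, rose by 1.06 (edgeR BH-adjusted p 4.88e-05) and fell by 1.32 (edgeR BH-adjusted p 8.46e-06). Klf4 and Tfcp2l1, pluripotency factor genes named after their values were seen, fell at 4h by 0.75 and 0.50 (edgeR BH-adjusted p 0.0103 and 0.046) and rose at rev by 1.00 and 0.69 (edgeR BH-adjusted p 0.00154 and 0.00967).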

How the data were processed

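The authors deposited a table of raw counts per Ensembl gene, 1 column per library; per the submitters' processing notes, reads were handled with bcl2fastq 2.19.1 and STAR 2.5.3a on the build mm10, and the counting program, annotation and strand setting are not given in the sources used here. Symbols, positions and exon lengths came from GENCODE M21 (GRCm38) by gene ID; 52489 of 52636 IDs matched. Genes were kept with filterByExpr (minimum count 10, minimum total 15), scaled by TMM and tested in R 4.3.3 with the quasi-likelihood F-test of edgeR 4.0.16 on all 16 libraries, with terms for group and clone; the test of clone differences used the 8 combinations of group and clone. P-values were adjusted by Benjamini-Hochberg across the 12742 tested genes, and standard errors are the log2 change over the square root of F. CPM are relative to the counts of tested genes; for log2 CPM, 2 counts were added as prior.

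The 10 genes and the lists were chosen with earlier results of these data known. All 10 were to be named; from each list, up to 3 genes called at 4h against 0h or rev against 4h with the largest change; for likeness, the 3 most correlated genes. Alternatives were RLE scaling, library totals, no filter, DESeq2 1.42.0, a threshold of 0.01, a block, no clone term, each clone alone and omission of each library; fits of the 0h and 4h or the 2h and rev libraries alone were added after the data were seen. The test was first run on simulated data of 12742 genes, drawn without clone differences, for 4h against 0h. It called 75 of 100 genes changed 2-fold and 44 of 100 changed 1.5-fold, each in the right direction. Of the unchanged genes 6 were called. Many changes of 1.5-fold or less would thus be missed, so a change that was not called is not shown to be absent. No pair of libraries of the same clone and group agreed within sampling noise (chi-square over degrees of freedom from 1.30 to 4.16). The lowest value was that of clone 8 at 0h. All libraries were therefore kept as separate libraries. These values cannot show whether the 2 libraries of a clone and group came from separate cultures. The limit set by 3 counts lay between 0.210 and 0.908 CPM per library and covers counting error only.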

Additional observations from a re-analysis of the deposited data

Results flagged for a closer look

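In 2 of the 40 sets of 4 libraries (10 genes in 4 groups) 1 library stood far from the other 3, where chance alone gives about 1 in 20: Gbx2 at 0h in the first clone 8 library, with 1.45 CPM against 0.599 to 0.719 CPM in the others, and Gbx2 at rev in the second clone 8 library, with 1.02 CPM against 0.565 to 0.606 CPM. These values rest on 14 and 8 counts.

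Differences in the change between the clones were called by a test of the difference itself (clone 8 minus clone 4, log2 scale). At 2h against 0h they were called for Jak1 (-0.58, kept by 13 of 22 alternatives) and Socs2 (-0.61, kept by 6). At 4h against 0h they were called for Il6st (0.52, kept by 6), Jak1 (-0.99, kept by 22) and Stat3 (0.85, kept by 21). At rev against 4h they were called for Il6st (-0.58, kept by 17) and Socs2 (-0.75, kept by 20). The shares of all tested genes in these 3 comparisons were 7.94%, 5.72% and 13.2%.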

How the results depend on the processing

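No called value changed direction under any alternative run. The counts below are of the 10 genes called, and the cause of each move was not tested. At 2h against 0h the 5 calls became 3 with no clone term, where all genes called went from 2162 to 757. At 4h against 0h the 5 became 2 at an adjusted p under 0.01 and 2 with no clone term, and 3 to 5 over omissions of 1 library. All genes called went from 1645 to 694, 546 and, over omissions, 964 to 1840. At 4h against 2h the 5 became 1 at 0.01, 1 with no clone term, 8 in clone 4 alone, 1 in clone 8 alone and 2 to 5 over omissions. All genes called went from 1547 to 457, 266, 3462, 1238 and, over omissions, 703 to 1762. At rev against 4h the 4 became 2 at 0.01, 1 with no clone term, 7 in clone 4 alone and 2 to 5 over omissions. All genes called went from 1224 to 494, 251, 3142 and, over omissions, 642 to 1493. At rev against 0h the 3 became 1 at 0.01, 1 with no clone term and 1 to 3 over omissions. All genes called went from 1332 to 450, 273 and, over omissions, 686 to 1567. At rev against 2h the 1 became 2 without the count filter, 2 with DESeq2, 0 at 0.01, 0 with no clone term, 2 in each clone alone, 2 with only the 2h and rev libraries (added after the data were seen) and 0 to 2 over omissions. All genes called went from 227 to 483, 314, 71, 41, 422 in clone 4, 448 in clone 8, 831 and, over omissions, 80 to 312. The 5 differences in level between clones became 3 at 0.01, where all genes called went from 4445 to 2995. The 2 clone differences in the change at 2h became 1 with RLE scaling, 1 with library totals, 0 without the filter, 0 with DESeq2, 0 at 0.01 and 0 to 2 over omissions. All genes called went from 1012 to 987, 999, 947, 526, 416 and, over omissions, 424 to 1149. Those at 4h went from 3 to 1 to 4 over omissions, and all genes called from 729 to 281 to 796. Those at rev went from 2 to 1 at 0.01 and 1 to 3 over omissions, and all genes called from 1681 to 852 and 727 to 1794.

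Libraries that share a number within the label did not deviate together more than others of the same clone (mean correlation 0.375 against 0.384). These values also hold the level difference between the clones. With clone means removed they were -0.162 and -0.147. As each clone and group held 2 libraries, these correlations cannot exclude pairing. The numbers were not taken to pair samples in the main fit. With a replicate block the calls were 5 at 2h against 0h, 4 at 4h against 0h, 3 at 4h against 2h, 4 at rev against 4h, 2 at rev against 0h and 0 at rev against 2h. All genes called were 1834, 1325, 1108, 912, 1027 and 158 in the same order, against 2162, 1645, 1547, 1224, 1332 and 227 in the main fit. Calls lost were Pim3 at 4h against 0h, Pim1 and Pim3 at 4h against 2h, Jak1 at rev against 0h, Gbx2 at rev against 2h and the Il6st clone difference at 4h. Depth limits Gbx2 most, with 2 to 14 counts per library at 0h and rev.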
